A study of Mus musculus with 12 samples.

Results

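The regions where BRD2 was called after RANKL were compared with those of BRD3 in RAW264.7, a macrophage-like line of mouse monocytes able to become osteoclasts. Regions came from 1 ChIP-seq list per protein, 1716 for BRD2 and 3840 for BRD3, together 5556 of the 16188 regions in all 8 lists of the series. A region that overlapped one of the other list by at least 1 bp was called co-bound, and the rest were called BRD2-side or BRD3-side. Of the BRD2 regions, 774 were co-bound (45.1%, 95% interval 42.7% to 47.5%) and 942 were BRD2-side. Of the BRD3 regions, 773 were co-bound (20.1%, 18.9% to 21.4%) and 3067 were BRD3-side. Co-bound means that calls from separate immunoprecipitations of a cell population overlap, not that both proteins sat on 1 DNA molecule.

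The BRD2 RANKL and BRD3 RANKL libraries were made from cells kept for 4 h with RANKL at 50 ng/ml, with no genetic change named in the labels, and fixed with 1% formaldehyde for 15 min. The 6 other lists, used below to ask where the same regions were found again and which promoter windows they touched, came from cells of the same line with I-BET (500 nM), with RANKL and I-BET together, or left untreated. Each protein and treatment has 1 library, so no value has a replicate error and no difference between BRD2 and BRD3 was tested. Intervals are exact binomial (Clopper-Pearson) for shares and order-statistic for medians, and cover counting error only. The depth of the libraries is unknown, and absence from a list does not show absence of the protein.

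BRD2 and BRD3 are paralogous BET proteins that bind acetylated lysines of histones through paired bromodomains and bring transcription machinery to promoters and enhancers. The inhibitor I-BET blocks their acetyl-lysine pockets. RANKL binds the receptor RANK on myeloid precursors and acts through NF-κB and AP-1 to start the osteoclast programme. NRF1 (nuclear respiratory factor 1) binds a GC-rich palindrome in promoters of mitochondrial and other housekeeping genes. ETS factors bind sequences with a GGAA core, and PU.1, the ETS factor encoded by Spi1, is the master factor of macrophages.

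Among 16 sets of motif letters searched in promoters, those of NRF1 differed most between the classes, and the 250 bases before the start of 7 genes are shown for that reason. They are RefSeq sequences of build GRCm38.p6, 5′ to 3′ on the strand of the gene, with the motif letters in capitals. The genes were picked after the values were seen, as examples with a match in the stretch shown. Ndufa8 and Cox6a1 encode respiratory chain subunits and Ran a nuclear transport GTPase. All 3 had BRD3-side regions, and their capitals mark the NRF1 motif with its middle base free, that is GCGC and TGCGC with any 1 base between them, in either orientation. Their stretches are chr2:36049339-36049588 (minus strand), chr5:115348959-115349208 (minus) and chr5:129019906-129020155 (plus).
Ndufa8: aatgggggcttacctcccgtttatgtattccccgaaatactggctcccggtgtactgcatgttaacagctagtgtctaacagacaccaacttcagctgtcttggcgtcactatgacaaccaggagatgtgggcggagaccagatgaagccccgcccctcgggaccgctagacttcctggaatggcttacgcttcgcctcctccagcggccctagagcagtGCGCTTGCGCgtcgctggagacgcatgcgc
Cox6a1: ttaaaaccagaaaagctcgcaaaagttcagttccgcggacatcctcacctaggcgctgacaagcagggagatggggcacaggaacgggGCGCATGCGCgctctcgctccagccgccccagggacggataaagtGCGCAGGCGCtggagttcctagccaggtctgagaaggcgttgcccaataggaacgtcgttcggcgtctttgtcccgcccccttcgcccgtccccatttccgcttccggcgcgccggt
Ran: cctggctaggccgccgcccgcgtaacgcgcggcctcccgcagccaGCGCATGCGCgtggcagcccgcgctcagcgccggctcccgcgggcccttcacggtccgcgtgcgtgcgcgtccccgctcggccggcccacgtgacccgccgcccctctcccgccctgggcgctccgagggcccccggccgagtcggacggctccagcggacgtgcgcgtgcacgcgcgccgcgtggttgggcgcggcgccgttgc
Brd2 itself and Mrpl12, a gene of the large mitochondrial ribosomal subunit, had co-bound regions and carried the same letters, at chr17:34122608-34122857 (minus) and chr11:120484387-120484636 (plus).
Brd2: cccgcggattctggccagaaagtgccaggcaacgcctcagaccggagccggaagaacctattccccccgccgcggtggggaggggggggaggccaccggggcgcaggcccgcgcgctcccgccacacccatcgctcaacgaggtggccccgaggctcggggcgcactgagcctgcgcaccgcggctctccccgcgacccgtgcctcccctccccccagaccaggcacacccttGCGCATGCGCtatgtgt
Mrpl12: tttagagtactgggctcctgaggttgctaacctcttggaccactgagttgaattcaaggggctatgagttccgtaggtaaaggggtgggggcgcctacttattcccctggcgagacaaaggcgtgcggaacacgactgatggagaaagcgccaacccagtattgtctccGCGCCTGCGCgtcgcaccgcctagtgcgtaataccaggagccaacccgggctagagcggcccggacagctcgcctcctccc
Rpl37, a cytosolic ribosomal protein gene, and Rel, the gene of the NF-κB subunit c-Rel, had BRD2-side regions. The capitals mark the ETS letters CCGGAAG in Rpl37 (chr15:5116363-5116612, plus) and the PU.1 letters GAGGAAGT in Rel (chr11:23770970-23771219, minus).
Rpl37: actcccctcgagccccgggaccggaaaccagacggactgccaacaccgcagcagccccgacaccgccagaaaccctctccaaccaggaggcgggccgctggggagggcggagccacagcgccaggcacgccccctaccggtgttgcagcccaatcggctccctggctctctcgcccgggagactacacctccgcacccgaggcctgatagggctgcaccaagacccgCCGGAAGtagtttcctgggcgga
Rel: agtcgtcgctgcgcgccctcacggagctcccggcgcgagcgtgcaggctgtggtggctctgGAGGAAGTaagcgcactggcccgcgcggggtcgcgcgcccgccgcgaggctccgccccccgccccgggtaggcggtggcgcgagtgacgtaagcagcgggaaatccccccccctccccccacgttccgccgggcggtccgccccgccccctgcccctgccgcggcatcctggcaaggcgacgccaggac

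Promoters touched by BRD3 held the NRF1 letters often, with or without BRD2, and promoters touched by BRD2 alone hardly ever did. The count ran over 21238 RefSeq promoter windows of 17469 protein-coding genes, each from 250 bases before to 50 after a start, none on chromosome 18. A window was touched by a region that overlapped it by at least 1 bp. The NRF1 letters with the free middle base, searched on both strands, were found in 149 of 474 windows touched by both proteins (31.4%, 27.3% to 35.8%). They were found in 9 of 711 windows touched by BRD2 only (1.27%, 0.580% to 2.39%) and in 854 of 2188 touched by BRD3 only (39.0%, 37.0% to 41.1%). Windows touched by neither held them in 1.91% and all windows in 6.38%. The strict palindrome, with A at the free base and so a subset of these matches, was found in 6.54% of windows touched by both, 0.281% with BRD2 only, 8.36% with BRD3 only and 1.33% of all windows. A match is a run of letters, not a measured NRF1 site. With the top 50% of each list by score the share with BRD2 only was 7.39%, and with the BRD3 list cut to its widest regions, equal in number to the BRD2 list, it was 6.77%.

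The BRD2-only class had the lowest share of the touched classes in every band of base composition. Median GC content was 63.7% in windows touched by both, 61.0% with BRD2 only, 63.3% with BRD3 only and 55.0% with neither. Among windows of over 60% to 70% GC, the NRF1 letters were in 37.6% of those touched by both, 2.28% with BRD2 only, 43.3% with BRD3 only and 3.18% with neither. Over 50% to 60% GC the shares were 27.2%, 0.395%, 35.7% and 2.01% in that order of classes. In both bands the BRD2-only share was below that of windows touched by neither protein, as it was over 70% GC (0.855% and 4.44%). These BRD2-only shares rested on 6 of 263, 1 of 253 and 1 of 117 windows in turn. Their intervals (0.842% to 4.90%, 0.0100% to 2.18% and 0.0216% to 4.67%) each held the share with neither. Up to 50% GC the BRD2-only share was above that with neither, with 1 of 78 windows (1.28%, 0.0325% to 6.94%) against 0.210%.

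Windows with the letters were touched more often than windows in general in all 8 lists, for both proteins, and mostly by BRD3. The RANKL lists, also part of the counts over all 4 lists below, set the classes, and the other lists played no part in that. Of the 1354 windows with the free-base NRF1 letters, a BRD2 region touched 4.95% in untreated cells, 11.7% under RANKL, 8.12% under I-BET and 2.44% with both agents. Over all windows, the BRD2 shares were 2.19%, 5.58%, 3.51% and 0.800% in the same order of treatments. A BRD3 region touched 73.2%, 74.1%, 68.2% and 77.6% of the windows with the letters, and 13.2%, 12.5%, 9.24% and 11.0% of all windows. All 4 BRD3 lists touched 769 of the windows with the letters (56.8%, 54.1% to 59.5%) and 3.81% of the windows without them. All 4 BRD2 lists touched 8 of the windows with the letters (0.591%) and 27 of the 19884 without them (0.136%), so the share was higher with the letters for BRD2 also.

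**Figure D1:**
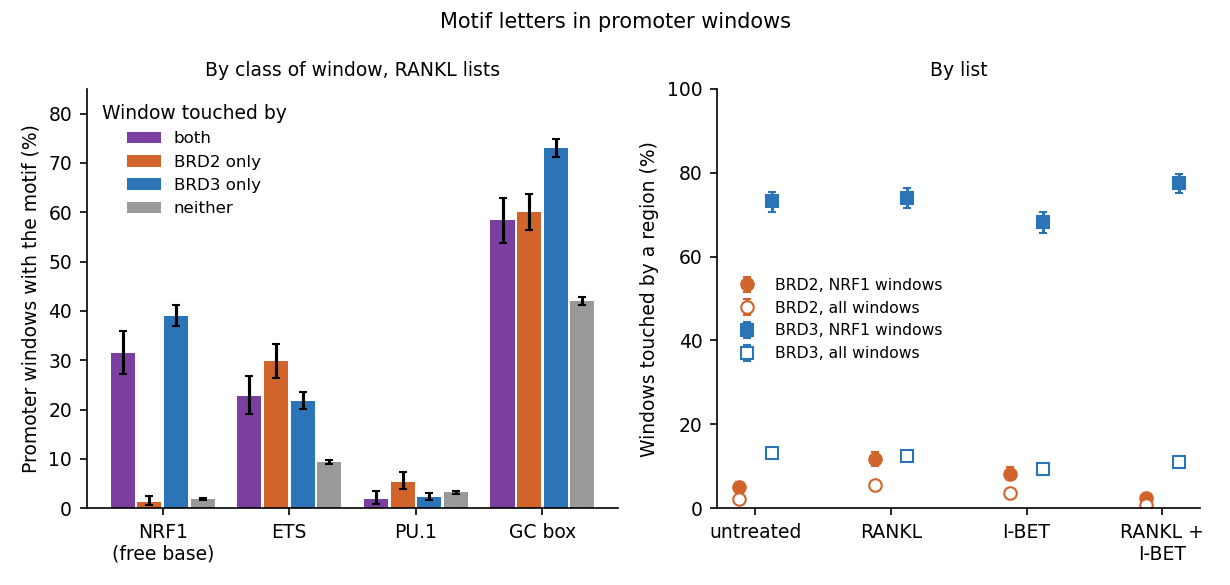
Left, the share of promoter windows (%) that hold each motif's letters, by whether a BRD2 region, a BRD3 region, both or neither touched the window under RANKL, with 95% binomial intervals. Right, the share of windows (%) touched by a region in each of the 4 BRD2 lists (circles) and 4 BRD3 lists (squares), for windows with the NRF1 letters (filled) and all windows (open). BRD3 squares for NRF1 windows lie between 68.2% and 77.6% and BRD2 circles between 2.44% and 11.7%.

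BRD2 regions at NRF1-letter promoters were nearly all co-bound, which is the split of windows above counted by region. It is not separate support, since under RANKL a BRD3 region touched 74.1% of windows with the letters and 12.5% of all windows. Of 136 BRD2 regions that touched such a window, 127 overlapped a BRD3 region (93.4%, 87.8% to 96.9%), against 250 of 787 BRD2 regions that touched only windows without the letters (31.8%, 28.5% to 35.1%). The regions with the letters were of similar width to those without, with medians of 893 bp and 852 bp. For BRD3 the letters did not mark co-binding: 16.2% of 832 regions with them and 20.2% of 1230 without were co-bound. BRD3 regions with the letters were found again under I-BET in 84.0% of cases and with RANKL and I-BET in 93.4%, against 55.7% and 69.4% of those without. In untreated cells the shares were 89.2% and 75.2%, so the order was the same without I-BET. The nearest letters in a touched window, inside the region or not, lay a median of 41 bp from the midpoint of BRD3 regions. For BRD2 regions it was 144 bp. For the ETS letters these medians were 98.5 bp and 133 bp. At windows with the NRF1 letters BRD3 regions had a median width of 675 bp and BRD2 regions 893 bp, and the part of width was not tested. At the 149 windows touched by both proteins, the median distance was 137 bp from the BRD2 midpoint and 77 bp from the BRD3 midpoint, and the letters were closer to the BRD3 midpoint at 97 (65.1%, 56.9% to 72.7%).

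The ETS, PU.1, YY1 and NF-κB letters had their highest shares in windows touched by BRD2 only. The AP-1 and C/EBP letters had theirs in windows touched by neither protein. CCGGAAG was in 22.8% (19.1% to 26.8%) of windows touched by both, 29.8% (26.5% to 33.3%) with BRD2 only, 21.8% with BRD3 only and 11.6% of all windows. The PU.1 letters GAGGAAGT, which share GGAAG with the ETS letters but cannot match at the same place, were in 1.90% (0.872% to 3.57%), 5.34% (3.81% to 7.26%), 2.29% and 3.13% of windows in the same order. This order did not hold among windows of over 50% to 60% GC, with 3.40%, 3.16% and 2.03% in the touched classes, and the shorter letters GAGGAAG, which contain the first 7 of these, were in 14.8% of windows with BRD2 only and 13.6% of all windows. The NF-κB letters, GGGA and TTTCC with any 1 base between them, were in 1 of 474 windows touched by both, 8 of 711 with BRD2 only, 4 of 2188 with BRD3 only and 0.424% of all windows. The GC box letters GGGCGG were in 58.4%, 60.1%, 73.0% and 46.2% in that order. Shares of the E-box CACGTG were 11.4% with BRD2 only and 11.3% with BRD3 only, against 7.84% of all windows. Those of the CCAAT letters were 31.4%, 33.2%, 35.3% and 38.2%.

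Co-bound regions were wider than those of a single protein in both lists. The median width was 1077 bp (1025 to 1129) for co-bound and 769 bp (746 to 792) for BRD2-side regions of the BRD2 list, and 1011 bp (965 to 1073) for co-bound and 630 bp (620 to 639) for BRD3-side regions of the BRD3 list. A wide region meets another more easily, so the class and the width are not independent measures. The co-bound share was higher in each wider bin, with 29.2% of BRD2 regions up to 500 bp and 50 of 57 over 3 kb (87.7%, 76.3% to 94.9%). For BRD3 these shares were 6.13% and 84 of 130 (64.6%, 55.8% to 72.8%).

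**Figure D2:**
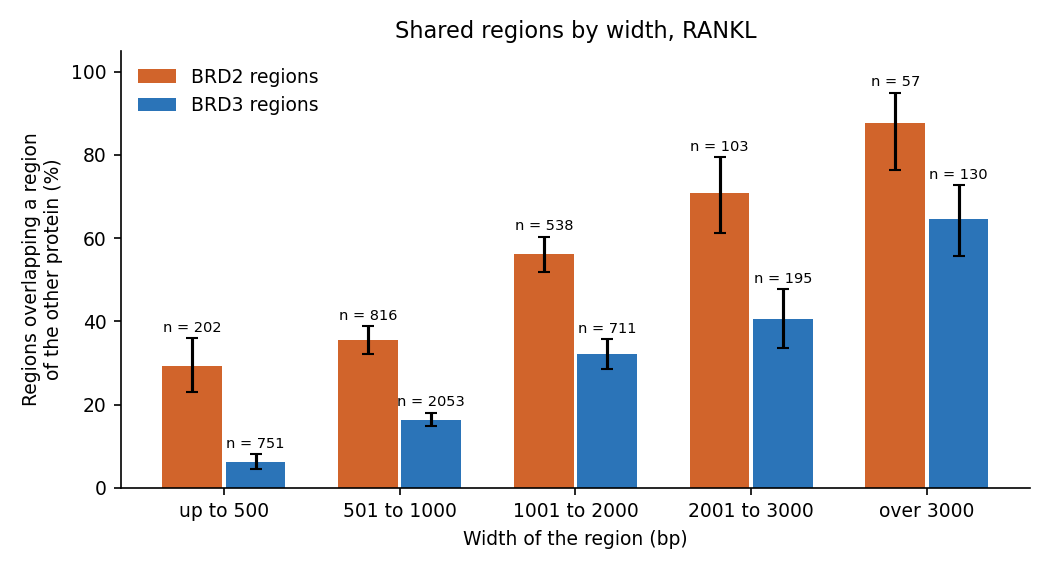
Share of regions (%) that overlap a region of the other protein under RANKL, by width in bp, for the BRD2 list and the BRD3 list. Bars carry 95% binomial intervals and the number of regions, and the share is higher in each wider bin, up to 87.7% for BRD2 and 64.6% for BRD3.

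Scores, the authors' value for each region, did not separate the classes. The median score was 42.7 in co-bound and 43.0 in BRD2-side regions of the BRD2 list, and 116 in co-bound and 114 in BRD3-side regions of the BRD3 list. By quartile of score the co-bound share was 43.6% to 48.3% of BRD2 regions and 19.3% to 20.8% of BRD3 regions. Score and width were barely related across regions (Spearman's rho -0.08 in the BRD2 list and 0.0076 in the BRD3 list), while scores of neighbouring regions went together (rho 0.33 over 1695 pairs and 0.61 over 3819). Keeping the top 50% of each list by score left 22.3% of BRD2 and 9.95% of BRD3 regions co-bound. No source at hand says what the score measures.

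Where the lists met, the regions matched closely. The 774 and 773 co-bound regions formed 775 pairs, in which a median of 788 bp was shared. In 643 pairs (83.0%, 80.1% to 85.5%) at least 50% of both regions was shared, and in 1 pair fewer than 100 bp. The BRD2 region lay wholly inside the BRD3 region in 185 pairs, the BRD3 region inside the BRD2 region in 205, and 385 overlapped in part. BRD2 was the wider in 365 pairs (47.1%, 43.5% to 50.7%). Widths in a pair went together (rho 0.67 over 775 pairs, which share loci) and scores did not (rho -0.01). Regions without a partner were mostly far from one: the gap to the nearest BRD3 region had a median of 112210 bp for BRD2-side regions, and 5 of 942 lay within 1 kb. The gap to the nearest BRD2 region had a median of 248127 bp for BRD3-side regions, and 7 of 3067 lay within 1 kb.

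Most regions of every class lay at gene ends, and co-bound regions lay between genes more often than BRD2-side ones. A region was placed by its midpoint, at a gene end (up to 1 kb from an end of a protein-coding gene), elsewhere in a gene, or between genes. In the BRD2 list, 58.0% (54.4% to 61.5%) of co-bound and 64.8% (61.6% to 67.8%) of BRD2-side regions were at a gene end, and 22.2% (19.3% to 25.3%) and 15.1% (12.8% to 17.5%) were between genes. In the BRD3 list, co-bound regions had 58.3% at gene ends and 22.0% between genes, and BRD3-side regions 62.3% and 17.8%. The widest co-bound regions were those between genes, with a median of 1485 bp (1267 to 1697) in the BRD2 list and 1919 bp (1558 to 2172) in the BRD3 list. At gene ends the co-bound medians were 930 bp (871 to 986) and 811 bp (764 to 870). BRD2-side regions measured 746.5 bp between genes and 762 bp at gene ends, and BRD3-side regions 696.5 bp and 619 bp.

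Around start sites the single-protein regions leaned to opposite sides. Of the 588 BRD2-side regions with a midpoint within 1 kb of a start in the RefSeq promoter table, 55.4% (51.3% to 59.5%) lay downstream, in the direction of transcription. Of the 1723 such BRD3-side regions, 38.4% (36.1% to 40.7%) did. The median midpoint was 29 bp (6 to 50) downstream for BRD2-side regions and 27 bp (21 to 33) upstream for BRD3-side regions. Co-bound regions stood between them, with 49.2% (44.2% to 54.3%) of 392 downstream in the BRD2 list and 42.6% (37.7% to 47.7%) of 394 in the BRD3 list. That table holds starts for 17492 of 21887 genes, so regions at other starts were not placed.

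Among 21887 protein-coding genes, 1360 had a BRD2 region within 1 kb of a gene end (6.21%) and 3004 a BRD3 region (13.7%). Both were found at 595 genes (2.72%), BRD2 alone at 765 (3.50%) and BRD3 alone at 2409 (11.0%). The 595 were 43.8% of the BRD2 genes and 19.8% of the BRD3 genes, and at 580 of them the regions overlapped. Every share of a gene list below is to be read against these percentages. They count all genes, silent ones included, and the part of expression in any share was not tested. With the top 50% of each list by score, 143 genes had both proteins and 1338 had BRD3 alone. With the BRD3 list cut by score to the number of BRD2 regions, those genes numbered 249 and 1072, fewer than the 1111 with BRD2 alone.

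At macrophage identity genes BRD2 mostly came with BRD3, at 8 of the 10 BRD2 genes (80%), against 43.8% of BRD2 genes in all. These are few genes. Lists with fewer BRD2 genes stood higher: replication-dependent histones (9 of 9), antigen presentation (1 of 1) and the MYC network (6 of 7, 85.7%). Of 35 genes, 10 had a BRD2 region and 16 a BRD3 region, 8 had both (22.9%), 2 had BRD2 only and 8 had BRD3 only. The 8 with both were Spi1, the M-CSF receptor gene Csf1r, the endotoxin co-receptor gene Cd14, the lysozyme gene Lyz2, the lipopeptide receptor gene Tlr2, the fractalkine receptor gene Cx3cr1, the scavenger receptor gene Msr1 and the NADPH oxidase subunit gene Cyba, and at all 8 the regions overlapped. At Spi1 the BRD2 region was 4851 bp wide (chr2:91081406-91086256) and lay wholly inside a BRD3 region of 6587 bp (chr2:91081201-91087787), both spanning the lower-coordinate end of the gene (chr2:91082374-91115759). At Msr1 the regions measured 3852 bp for BRD2 and 3766 bp for BRD3, at Lyz2 2938 bp and 3935 bp, at Csf1r 2721 bp and 3294 bp, and at Cd14 2614 bp and 4485 bp. At Tlr2 the BRD2 region was the wider, with 3300 bp against 2310 bp, and at Cyba both were short, with 764 bp and 910 bp.

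Macrophage genes with 1 protein had mostly shorter regions. Those with BRD2 only were the leukocyte phosphatase gene Ptprc (CD45), with 677 bp, and the cathepsin S gene Ctss, with 713 bp. BRD3 alone was at Cd68 (3593 bp), the second lysozyme gene Lyz1 (3034 bp), Tyrobp (1573 bp), Cebpb (1453 bp), Cebpa (590 bp), Fcer1g (577 bp), Lcp1 (518 bp) and Fcgr3 (484 bp). Cebpa and Cebpb encode myeloid C/EBP factors, Tyrobp and Fcer1g adaptors of activating receptors, Lcp1 an actin-bundling protein and Fcgr3 an Fc receptor. Lcp1 also had a co-bound BRD2 region of 5633 bp inside the gene, away from its ends. Of the 8 macrophage markers used to check the cell line, Spi1, Csf1r, Cd14, Cd68, Lyz2 and Ptprc had a region of either protein, and Itgam and Adgre1 had none. Of 44 marker genes of other lineages, 0 had a BRD2 region within 1 kb of a gene end. At 1, the neuronal gene Syn1, a BRD3 region lay there. Runx2, also of this list, had a co-bound pair inside the gene, away from its ends.

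**Figure D3:**
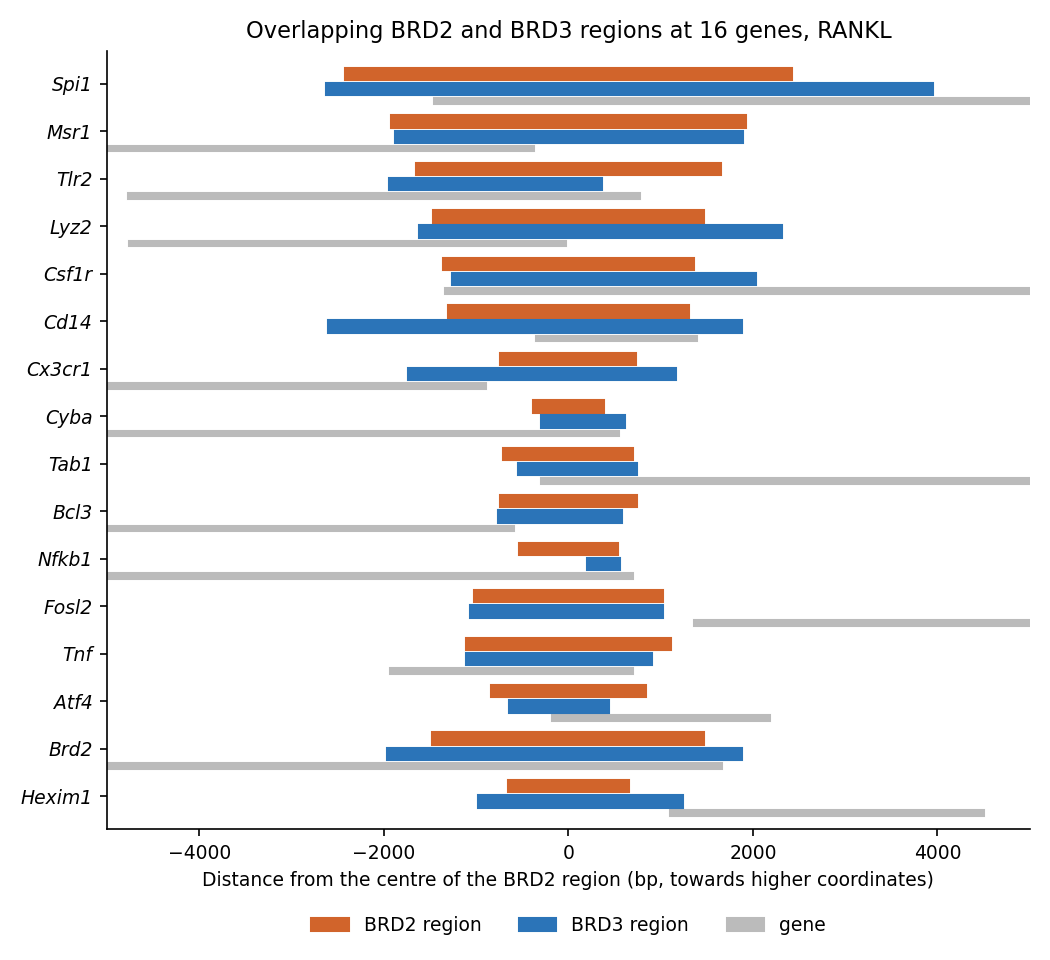
BRD2 regions (upper bars), BRD3 regions (lower bars) and gene spans (grey, cut at the frame) at 16 genes with overlapping regions under RANKL, drawn to scale in bp from the centre of the BRD2 region. Spi1 has the widest pair, 4851 bp for BRD2 inside 6587 bp for BRD3, and Nfkb1 shares 343 bp.

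Among 35 genes of the RANK pathway and NF-κB, 9 had a BRD2 region (25.7%) and 9 a BRD3 region (25.7%), and 3 had both. These 3 were 33.3% of the BRD2 genes and 33.3% of the BRD3 genes, against 43.8% and 19.8% over all genes. BRD2 alone was at 6 (17.1%): Rel and Relb, which encode NF-κB subunits, Nfkbiz, an atypical IκB gene, the kinase genes Map3k7 (TAK1) and Btk, and Tab2, whose product activates TAK1. BRD3 alone was at 6 (17.1%): Rela, the gene of the p65 subunit, Nfkbia (IκBα), the NIK kinase gene Map3k14, Traf3, Tab3 and the exchange factor gene Vav3. Both were at Nfkb1, Bcl3 and Tab1, where the overlap was 343 bp, 1327 bp and 1256 bp. The Rel region of BRD2 was 1833 bp wide (chr11:23769852-23771684), and the nearest BRD3 region was 272112 bp away. The Nfkbia region of BRD3 was 1102 bp wide (chr12:55491514-55492615), and the nearest BRD2 region was 92219 bp away. At Nfkb1 the BRD2 region measured 1082 bp and the BRD3 region 362 bp.

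None of 31 osteoclast genes had a BRD2 region within 1 kb of a gene end. That allows a share of up to 11.2% (Clopper-Pearson), which includes the 6.21% of all genes. A BRD3 region was at 4 (12.9%, near the 13.7% of all genes). These were Ctsk (cathepsin K, which degrades bone collagen), the V-ATPase subunit gene Atp6v1c1, the tetraspanin gene Cd9 and the receptor gene Sirpa, with regions of 1799 bp, 595 bp, 546 bp and 1907 bp. Away from gene ends, Mitf, which encodes a factor of osteoclasts and pigment cells, had a co-bound pair of 998 bp for BRD2 and 2867 bp for BRD3, and a further BRD3-side region of 6461 bp. Runx2, sought among the marker genes of other lineages and not in the osteoclast list, had a co-bound pair inside the gene. It measured 1042 bp for BRD2 and 563 bp for BRD3.

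Of 32 immediate-early and signalling genes, 4 had BRD2 (12.5%, against 6.21% of all genes) and 7 had BRD3 (21.9%, against 13.7%), with Fosl2, a Fos family gene, and the stress factor gene Atf4 in both. At Fosl2 both regions lay next to the gene, 2044 bp for BRD2 inside 2095 bp for BRD3. Klf6 and Dusp6 had BRD2-side regions of 2615 bp and 2395 bp, and Fosb, Junb, Jund, Mafg and Zfp36l2 had BRD3-side ones. Of 31 inflammatory genes, 2 had BRD2 (6.45%, near the 6.21% of all genes) and 3 had BRD3 (9.68%, against 13.7%). Tnf had both, with 2230 bp for BRD2 and 2009 bp for BRD3. The chemokine gene Ccl9 had BRD2 alone, and Ccl3 and Ccl4 shared 1 BRD3-side region of 2362 bp. The BRD2 region at Ccl9 and the BRD3 region at Ccl3 were 69166 bp apart. Of 29 interferon genes, Ifnar2, Oasl1 and Trim25 had BRD2 alone, Ifnar1 and Irf3 had BRD3 alone and 0 had both. The BRD2 share was 10.3% and the BRD3 share 6.90%, and over all genes 2.72% had both. Of 20 antigen presentation genes, H2-DMa had both, through a region that it shares with Brd2, and Lilrb4a had BRD3 alone. The shares of that list, 5% for BRD2 and 10% for BRD3, were below those of all genes.

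Of 35 BET and elongation genes, 5 had BRD2 (14.3%) and 9 had BRD3 (25.7%), of which 6 had BRD3 alone (17.1%, against 11.0% of all genes), with Brd2, the cyclin T2 gene Ccnt2 and Hexim1, whose product inhibits the kinase P-TEFb, in both. The Brd2 regions were 2948 bp for BRD2 (chr17:34119672-34122619) inside 3851 bp for BRD3 (chr17:34119182-34123032). BRD3-side regions lay at Mepce (2114 bp), Mllt3, Kat7, Nelfe and Supt4a, among others, while the NELF subunit gene Nelfb and Jmjd6 had BRD2-side regions of 665 bp and 1045 bp. Of 36 MYC network genes, 7 had BRD2 (19.4%) and 19 had BRD3 (52.8%), and 6 of the 7 were also BRD3 genes. Ncl, Npm1, Srm, Eno1, Eif4e and Phb2 had both, Nme1 had BRD2 alone, and BRD3 alone was at 13, among them Max and Mlx of the MAX network, Cdk4, Odc1, Ran, Tfrc and Ppan.

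Cytosolic ribosomal protein genes were the list with the highest share of BRD2 genes. Most mitochondrial and housekeeping lists had more BRD3 genes, as did all genes together (6.21% with BRD2 and 13.7% with BRD3). Of 83 cytosolic ribosomal protein genes, 44 had BRD2 (53.0%, 41.7% to 64.1%) and 34 had BRD3 (41.0%, 30.3% to 52.3%). They divided into 18 with both, 26 with BRD2 only (31.3%) and 16 with BRD3 only (19.3%). Rplp1, Rpl37, Rpl29 and Rps19 had the highest-scoring BRD2-only regions, Rps6, Rpl37a, Rpl36 and Rpl28 the highest BRD3-only ones, and Fau, Rps29, Rps18 and Rpl34 were among those with both. Of 79 mitochondrial ribosomal protein genes, 18 had BRD2 and 28 had BRD3, with 6 in both, 12 BRD2 only (Mrps31, Mrpl51, Mrpl21 and Mrpl53 highest) and 22 BRD3 only (Mrpl10, Dap3, Mrps33 and Mrpl14).

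Of 75 oxidative phosphorylation genes, 13 had BRD2 (17.3%) and 31 had BRD3 (41.3%). BRD3 alone was at 25, led by Ndufa5, Atp5g3, Ndufab1 and Uqcr11, and BRD2 alone at 7, led by Atp5b, Uqcrh, Ndufs4 and Ndufc2. The NRF1 letters were in 13 of the 26 windows of this list that BRD3 alone touched, in 2 of 6 touched by both, 0 of 6 by BRD2 alone and 3 of 30 by neither. For mitochondrial ribosomal proteins those counts were 8 of 20, 4 of 6, 0 of 13 and 1 of 36. For cytosolic ribosomal proteins they were 1 of 13, 3 of 16, 0 of 24 and 1 of 20. Over all genes, 39.0% of windows touched by BRD3 alone held the letters. The ETS letters were in 9 of the 24 cytosolic ribosomal protein windows touched by BRD2 alone, 6 of 16 by both, 2 of 13 by BRD3 alone and 9 of 20 by neither.

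BRD3 was at most replication-dependent histone genes, which are clustered in the genome, and BRD2 at few. Of 66, 47 had a BRD3 region (71.2%, 58.7% to 81.7%) and 9 a BRD2 region (13.6%, 6.43% to 24.3%), and all 9 were BRD3 genes. The regions behind these counts were 5 for BRD2 and 24 for BRD3, since neighbouring histone genes share regions. H2ac21, H2ac20, H2bc21 and H3c6 were among the 9, and H2bc11, H2ac11, H4c9 and H4c8 had the highest-scoring BRD3-only regions. The histone windows touched by BRD3 alone held the NRF1 letters in 0 of 37. Lysosome and V-ATPase genes had 2 of 39 with BRD2 (5.13%, near the 6.21% of all genes) and 12 with BRD3 (30.8%, against 13.7%). Of these 12, 11 had BRD3 alone, led by Atp6v0d1, Atp6v1b2, Psap and Atp6v1e1. Aminoacyl-tRNA synthetase genes had 6 with BRD2 (15.4%) and 17 with BRD3 (43.6%) of 39. Only Lars2 had both (2.56%, near the 2.72% of all genes), with regions that did not overlap. Transfer RNA genes were overlapped by 1 BRD2-side region of 942 and 25 BRD3-side regions of 3067.

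In the other housekeeping lists the BRD2 share was 14.3% to 34.9%, and the BRD3 share was higher in each, up to 41.9%. Over all genes the order was the same, with 6.21% for BRD2 and 13.7% for BRD3, so it does not set these lists apart. Of 43 chaperone genes, 9 had both, among them the chaperonin genes Cct4 and Cct7, 6 had BRD2 only (Dnajb4, Trap1, Hspa5 and Hsp90b1 highest) and 9 had BRD3 only (Bag1, Cct3, Hsp90aa1 and Dnajc3). Of 65 splicing genes, 10 had both (Sf3b3, Hnrnpa3, Hnrnpu and Snrnp70), 11 BRD2 only (Snrpd1, Srsf11, Hnrnpc and Hnrnpul1) and 16 BRD3 only (U2af2, U2af1, Srsf7 and Sf3a2). The U2af2 region of BRD3 was co-bound, sharing 373 bp with a BRD2 region that did not reach the window of that gene. Of 47 Mediator and Integrator genes, 5 had both, Med1, Ints14 and Ccnc had BRD2 only, and 13 had BRD3 only, with Med18 and Med17 the highest. Of 44 proteasome genes, 4 had both, 6 BRD2 only and 7 BRD3 only. Of 66 chromatin modifier genes, 6 had both, with Smarca4 (BRG1), Ctcf, Eed and Arid1a the highest, 7 had BRD2 only and 15 BRD3 only, led by Wdr5.

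**Figure D4:**
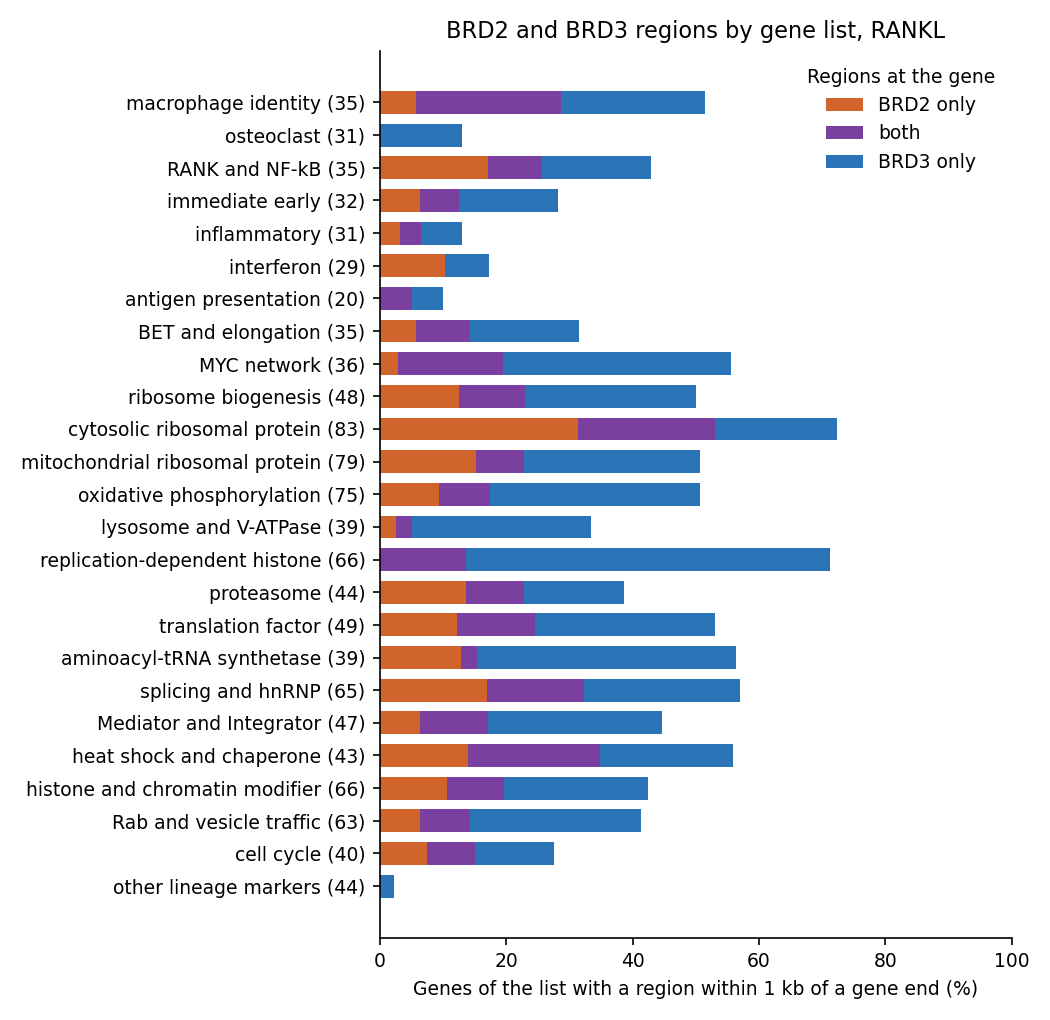
Share of the genes of each list (%) with a BRD2 region only, with both proteins, or with a BRD3 region only within 1 kb of a gene end under RANKL, with the number of genes in brackets. BRD2 only is largest for cytosolic ribosomal proteins (31.3%) and BRD3 only for replication-dependent histones (57.6%).

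Some loci held several regions, and there BRD2 came with BRD3 more often. Regions of both lists that lay within 10 kb of each other were joined into loci. In loci with a single separate region, 43.2% (40.6% to 45.7%) of BRD2 regions were co-bound, with 2 regions 51.7% (44.0% to 59.4%) and with 3 or more 76.4% (63.0% to 86.8%). The locus of Cd14 and Tmco6 held 3 BRD2 and 5 BRD3 regions over 36033 bp, with 8326 bp of BRD2 and 17084 bp of BRD3. The locus of Lyz1 and Lyz2 held 2 BRD2 and 4 BRD3 regions over 24838 bp, and that of Msr1 2 and 3 over 14150 bp. Between Ctsk and Ctss lay a co-bound BRD2 region of 3041 bp (chr3:95518839-95521879), although Ctsk had BRD3 alone and Ctss BRD2 alone at its ends. Within genes, Ahnak had 3 BRD2 and 4 BRD3 regions, Plcb4 had 1 and 6, and Vps8 had 2 and 5.

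The widest co-bound BRD2 region was 7294 bp, in Tnrc18, followed by 7128 bp between genes near Ppara and 6437 bp in Apobec1. The widest co-bound BRD3 region was 10554 bp, 8317 bp from Rbpj, followed by 7942 bp at Fth1, the ferritin heavy chain gene, and 7457 bp between genes near Rgs13. The widest BRD2-side region was 4612 bp at Rhof and Setd1b, and the widest BRD3-side regions were 7039 bp in Lpp, 6830 bp in Rgl1 and 6461 bp in Mitf. By score, the co-bound BRD2 region in the cathepsin B gene Ctsb (227), the BRD2-side region at Vps36 (374.7), the co-bound BRD3 region in Plec (1098) and a BRD3-side region near Wdr5 (1053) led their classes. On chromosome X there were 10 BRD2 and 71 BRD3 regions, 7.1 BRD3 regions for each BRD2 region, against 1.68 to 3.32 on chromosomes 1 to 19.

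In the lists of other treatments, BRD2-side regions met BRD3 regions less often than co-bound regions did. This order was partly set by how the classes were made. BRD2-side regions have no BRD3 call under RANKL, and many BRD3 regions recur between treatments. BRD2-side regions are also narrower, and the part of width was not tested. Of the 942, 190 overlapped a BRD3 region of untreated cells (20.2%, 17.7% to 22.9%), 24 one of I-BET (2.55%, 1.64% to 3.77%) and 34 one of RANKL with I-BET (3.61%, 2.51% to 5.01%). For the 774 co-bound BRD2 regions those shares were 70.9% (67.6% to 74.1%), 41.9% (38.4% to 45.4%) and 48.7% (45.1% to 52.3%). Other BRD2 lists held 340 of the BRD2-side regions (36.1%, 33.0% to 39.3%) and 361 of the co-bound ones (46.6%, 43.1% to 50.2%). Of the BRD2-side regions, 505 (53.6%, 50.4% to 56.8%) were in none of the 6 other lists, against 118 of the co-bound ones (15.2%). The other BRD2 lists are short, 578 regions in untreated cells, 1067 with I-BET and 245 with both agents, which limits how many could be found again. The BRD3 lists differ in length too, with 3668 regions (3563 kb) in untreated cells, 2232 (1598 kb) with I-BET and 2842 (1819 kb) with both agents.

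BRD3-side regions were found again under I-BET more often than co-bound ones. Of the 3067, 55.1% (53.3% to 56.8%) overlapped a BRD3 region of I-BET and 68.1% (66.5% to 69.8%) one of RANKL with I-BET, against 42.3% (38.8% to 45.9%) and 49.7% (46.1% to 53.3%) of the 773 co-bound BRD3 regions. In untreated cells the shares were alike, at 72.2% (70.6% to 73.8%) and 71.3% (67.9% to 74.4%). Co-bound regions are wider, and the part of width in this order was not tested. Any other BRD2 list held 281 of the BRD3-side regions (9.16%, 8.16% to 10.2%) and 359 of the co-bound BRD3 regions (46.4%, 42.9% to 50.0%). That difference too was partly set by the classes, since BRD3-side regions have no BRD2 call under RANKL. All 6 other lists held 11 of the co-bound BRD2 regions and 0 of the BRD2-side regions.

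**Figure D5:**
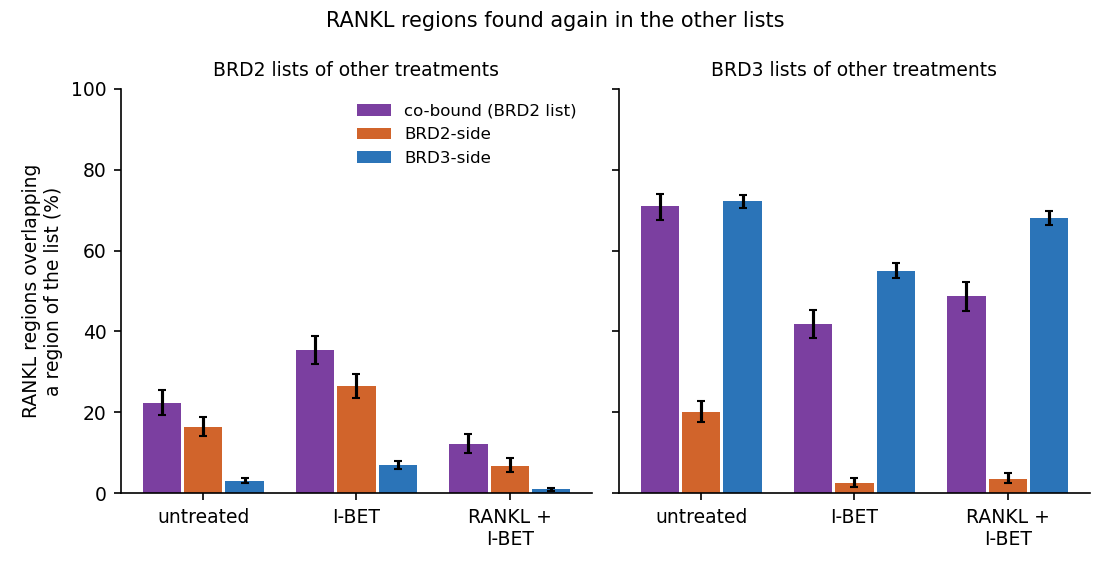
Share of RANKL regions (%) that overlap a region of each list from another treatment, BRD2 lists on the left and BRD3 lists on the right, for co-bound regions of the BRD2 list, BRD2-side and BRD3-side regions, with 95% binomial intervals. BRD2-side bars stand at 2.55% and 3.61% in the BRD3 lists made with I-BET, where BRD3-side bars reach 55.1% and 68.1%.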

How the data were processed

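The 8 deposited peak lists, 1 per antibody and treatment, give for each region a position, the names of the joined peaks and a score. The submitters' processing notes name Bowtie2 2.3.4.1, FastQC, MACS2 2.1.1.20160309, mm10 and GRCm38, with no settings. By the names of their peaks, nearly all deposited regions (99.5% for BRD2 and 98.9% for BRD3 under RANKL) join exactly 3 peaks, from sets numbered 3, 5 and 7. The sources used here give neither the meaning of the sets nor how the authors made the score, which was used within a list only. Of the peak numbers in each set, about 40.1% to 40.4% were joined for BRD2 and 63.5% to 74.6% for BRD3. The lists give no read counts or depth, and the 4 input libraries were not analysed here. Positions were read as BED intervals and are printed counted from 1.

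Genes came from the RefSeq table of GRCm38.p6, the build of the files, which gives no strand or exons. Start sites and sequences came from the RefSeq promoter table. Overlaps, shares and medians were computed with Python 3.11.15, numpy 2.4.6, pandas 2.3.3 and scipy 1.17.1. Overlap calls were tested on simulated data and against bedtools 2.31.1. Of 1177 gene list members sought in 25 lists, 1174 matched.

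The members, gene lists and most motifs were chosen with earlier results of these data known. Of the 16 letter sets, 4 were added after the first motif shares were seen (the free-base NRF1 letters, a shorter NRF1 run, and other lengths of the ETS and PU.1 letters), and the joining distance of 10 kb was also set after seeing the data. All listed members with a region could be named for the lineage, signalling, BET and MYC lists, the highest-scoring 4 of each class for other lists, and the 5 widest and 5 highest-scoring regions of each class. A result for 1 of these genes is not reported here. Alternatives were other overlap minimums, windows and subsets of the lists.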

Additional observations from a re-analysis of the deposited data

How the results depend on the processing

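No paired analysis was possible because each antibody and treatment has 1 library. Of 94 alternative values for 27 results, 59 lay within the counting interval or within 1.5 times the count. Among regions sharing at least 50% of both widths, 37.5% of BRD2 and 16.7% of BRD3 regions were co-bound. The top 50% of each list by score gave 22.3% and 9.95%, and genes with both numbered 143 and with BRD3 only 1338. With the BRD3 list cut by score to the BRD2 number, 20.7% of BRD2 regions were co-bound, and those genes numbered 249 and 1072. The cause was not tested. The BRD3 share was 22.0% among regions of at least 500 bp. Chosen after seeing the data, the widest 50% of each list gave 51.0% and 22.8%, and the BRD3 list cut by width 32.4% and 32.3%.

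With 2.5 kb around gene ends, 65.0% of co-bound and 73.0% of BRD2-side regions of the BRD2 list were at gene ends, and 64.9% of co-bound and 68.5% of BRD3-side regions of the BRD3 list. In the widest 50% those shares were 45.2% (co-bound, BRD2 list), 45.5% (co-bound, BRD3 list) and 57.9% (BRD3-side). In the top 50% by score, median widths were 962 bp (co-bound) and 822 bp (BRD2-side) in the BRD2 list and 668 bp for BRD3-side regions, and median scores 54.3 and 53.3 in the BRD2 list and 197 and 205 in the BRD3 list. There, other BRD2 lists held 27.2% of co-bound and 7.17% of BRD3-side regions, and other BRD3 lists 66.5% of co-bound BRD2 regions. The NRF1 letters with a free base were in 7.39% of BRD2-only windows in the top 50% by score and in 6.77% with the BRD3 list cut by width, a setting in which windows without their BRD3 region count as BRD2 only. The ETS letters were in 25.9% of BRD2-only windows in the top 50% by score, and in 19.8% of BRD3-only windows with the BRD3 list cut by width. The order of co-bound and single-protein scores changed in both lists in the top 50% by score, and genes with BRD2 only (1111) outnumbered those with BRD3 only where the BRD3 list was cut by score. Letter settings were chosen after seeing the data. Depth is unknown, and with 1 library each no replicate could be left out.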
